A study of Mus musculus with 6 samples.

Results

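The genes described here encode the signalling subunits of the B cell receptor and the surface proteins that raise or lower its signal. They are 9 of the 54446 genes in the normalized counts: *Cd79a*, *Cd79b*, *Cd81*, *Cr2*, *Cd22*, *Cd72*, *Ms4a1*, *Cd37* and *Fcgr2b*. They were chosen by name, as surface genes of the receptor complex, its coreceptors and its inhibitory receptors, with a rule that has no threshold on measured values. RNA was sequenced from naive B cells of the spleen, purified by immunomagnetic negative selection and cultured for 7 days in the presence of LPS at 20 µg/ml and IL-4 at 20 ng/ml. There were 3 libraries from *Tent5c* KO mice and 3 from WT littermates, all on a mixed C57BL/6J X CBA background, and the RNA-seq methods give an age of 12 to 15 weeks. Each of the 3 batches held 1 KO and 1 WT library with the same replicate number, here called a pair. *Tent5c* encodes a cytoplasmic poly(A) polymerase, and the comparison asks how its loss changes transcript levels in activated B cells.

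The B cell receptor is a membrane immunoglobulin that binds antigen and has almost no cytoplasmic tail of its own. It signals through a dimer of CD79A and CD79B, whose tails carry activating motifs that Src family kinases phosphorylate. CD21 (encoded by *Cr2*) and CD81 belong to a coreceptor that lowers the threshold for activation when antigen carries complement. CD22, CD72 and the Fc receptor FcγRIIB carry inhibitory motifs that recruit phosphatases. CD20 (encoded by *Ms4a1*) and the tetraspanin CD37 are surface proteins of mature B cells, and several of these transcripts are known to decline as a B cell becomes a plasma cell.

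Depth ranged from 5393558 to 6793520 fragments on genes per library, and 3 fragments, the limit that a count of 0 allows, equal 2.72 to 3.61 normalized counts. The transcript of the targeted gene was not lower in the libraries labelled KO: *Tent5c* had 1993, 993 and 1170.4 normalized counts in KO pairs 1, 2 and 3 and 1255, 767 and 1584 in WT. Its log2 fold change was 0.20 (SE 0.19, limma adjusted *p* = 0.970), and −0.03 without replicate 1, so the genotype rests on the labels. All 7 B cell markers were expressed, with sums of 17337 to 19544 in KO and 18544 to 18999 in WT, and 6 of 7 plasma cell markers passed the filter of a mean of 10 normalized counts, with sums of 11616 to 20451 in KO and 12008 to 24686 in WT. Of the markers of other cells, 1 of 10 for T cells, 4 of 11 for myeloid cells, 2 of 5 for NK cells, 1 of 5 for dendritic cells and 0 of 7 for erythroid cells passed that filter. *Xist* lay between 11610 and 11636 in both libraries of pair 2 and between 0 and 6.61 in the other 4, and the Y-linked *Ddx3y* was 0 in pair 2 and 1285 to 1477 in the others, so the libraries of a pair did not differ in sex while the pairs did. In bulk RNA, fewer cells of a type and less RNA per cell cannot be told apart.

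The 9 genes lie on chromosomes 1, 4, 7, 11 and 19 of GRCm38 and all are protein coding. Promoter sequence was taken from RefSeq (GRCm38.p6) as the 250 bases before the start of the gene, and the table used held 7 of the 9 genes, without *Cd79b* and *Ms4a1*. *Cr2* is shown first because its levels differed most between the genotypes. Its gene spans chr1:195136811-195176716 on the minus strand, and the 250 bases before its start, chr1:195176720-195176969, hold no annotated exon of this release. *Cd79a* is shown next because its KO values lay below its WT values with the deposited scaling. It spans chr7:24897381-24902197 on the plus strand, and the 134 bases printed, chr7:24897247-24897380, are those of its window that lie before the first annotated exon.
Cr2: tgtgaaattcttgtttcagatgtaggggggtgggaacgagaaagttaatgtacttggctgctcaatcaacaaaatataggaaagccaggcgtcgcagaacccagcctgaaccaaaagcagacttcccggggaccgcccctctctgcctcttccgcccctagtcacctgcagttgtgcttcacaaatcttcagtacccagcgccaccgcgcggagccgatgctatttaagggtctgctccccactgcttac
Cd79a: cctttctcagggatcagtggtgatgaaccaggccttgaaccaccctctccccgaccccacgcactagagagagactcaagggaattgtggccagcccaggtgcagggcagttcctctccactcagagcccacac
Neither window held any of the motifs searched on both strands, which were the octamer ATTTGCAT of OCT factors, the EBF1 palindrome (TCCC and GGGA with any pair of bases between them), the composite of ETS and IRF factors (GGAA and GAAA with any pair of bases between them), and the PU.1 sequence GAGGAAGT. The octamer was found in 0 of the 7 promoters, against 1.6% of all 32851 RefSeq promoter windows of that length. Only exact matches to these letters were counted, so a binding site that departs from them would be missed.

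The matches that were found are printed with the matched letters in capitals, as examples of letters that these B cell promoters hold. *Fcgr2b* held the ETS-IRF composite (2.30% of all windows), on the strand opposite to the gene, at chr1:170976087-170976116. *Cd72* and *Cd37* held the PU.1 sequence (2.44% of all windows), also on the opposite strand, at chr4:43454658-43454685 and chr7:45238847-45238874. *Cd22* held the EBF1 palindrome (0.779% of all windows) at chr7:30879058-30879087. All 4 genes lie on the minus strand, and the sequences read 5′ to 3′ in the direction of the gene. The stretch of *Cd37* lies in an exon annotated from an earlier start. That of *Fcgr2b* lies inside the gene and in annotated exons, of *Fcgr2b* or of an antisense gene, which were not separated. That of *Cd22* also lies inside the gene as annotated in Gencode (chr7:30865402-30880342), but outside its exons.
Fcgr2b: gaccgtttctTTTCACTTCCccatttggac
Cd72: ccaaagacctACTTCCTCttttatgact
Cd37: cccccccggaACTTCCTCtttctctgcc
Cd22: tcctgcaagaTCCCTGGGGActcacacaga
Each match is a description of the letters and was not tested as a binding site.

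Across the whole set, transcript levels of the receptor complex differed little between the libraries labelled KO and WT. All 9 genes passed the filter, and 0 of 9 passed an adjusted *p* of 0.05 in limma with the batch in the model, against 0.0% of the 12322 genes tested. The quasi-likelihood test of edgeR also called 0 of 9 (0.0% of all), and DESeq2 called 0 of 9 against 0.232% of the 9894 genes to which it gave an adjusted *p*. At an unadjusted *p* under 0.05, 1 gene was higher in KO (*Cr2*, against 1.67% of all genes) and 1 was lower (*Cd79a*, against 3.03% of all genes). The unadjusted *p* of *Cr2* was 0.00485, with 0.0700 in edgeR without the block, and that of *Cd79a* was 0.0387, with 0.0993 under total-count scaling, 0.0781 in DESeq2, and 0.191 and 0.179 without replicate 1 and without replicate 2. The log2 fold change was within 0.25 of 0 for 8 of the 9 genes (82.0% of all genes), 5 values were positive and 4 negative, and the median was 0.0038 beside 0.00067 over all genes tested. Together the 9 genes took 0.419% ± 0.032 of the fragments in KO and 0.409% ± 0.040 in WT (SD, n = 3 each).

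**Figure D1:**
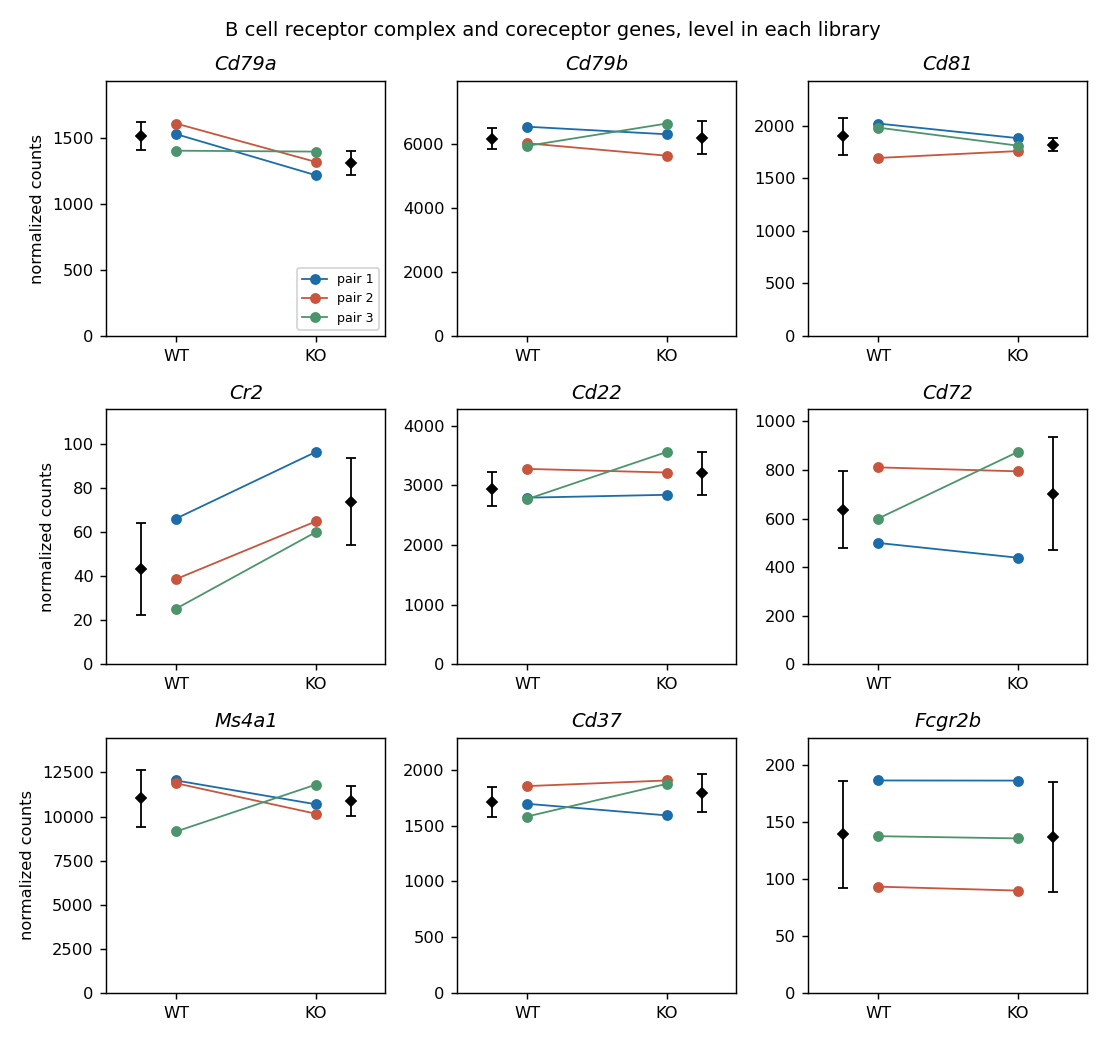
Normalized counts of the 9 genes in each library, with lines joining the WT and KO libraries of a pair and diamonds giving the group mean ± SD (n = 3), each axis starting at 0. *Cr2* was higher in KO in all 3 pairs, *Cd79a* had its 3 KO values below its 3 WT values with this scaling, and *Fcgr2b* moved with the pair and not with the genotype.

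*Cd79a*, which encodes the Igα chain, had 1219, 1320.2 and 1398 normalized counts in KO pairs 1, 2 and 3, and 1531, 1611 and 1405 in WT. The 3 KO libraries were below the 3 WT libraries, with KO and WT of pair 3 less than 1% apart, and 3.44% of all genes had KO values wholly below WT. The groups overlapped under total-count, TMM and quantile scaling, where KO of pair 3 was above WT by 0.067, 0.0089 and 0.0022 on the log2 scale. The means were 1313 ± 89.7 in KO and 1516 ± 104 in WT (SD, n = 3 each), and the log2 fold change was −0.21 (SE 0.080, 95% interval −0.40 to −0.015), a KO level 0.866 times that of WT. This did not pass the threshold (limma adjusted *p* = 0.970), and the adjusted *p* lay between 0.402 and 1.00 over the alternatives. The KO/WT ratio was 0.797 in pair 1 (95% counting interval 0.740 to 0.857), 0.819 in pair 2 (0.761 to 0.882) and 0.995 in pair 3 (0.922 to 1.07). These intervals come from the fragments of 2 libraries and cover counting error only.

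*Cd79b* (chr11:106311341-106314762, minus strand), which encodes the Igβ chain of the same dimer, had close to equal means in the 2 genotypes. It had 6299, 5629.5 and 6634 normalized counts in KO and 6534, 6017 and 5936 in WT, and the groups overlapped, with means of 6187 ± 511 and 6162 ± 325 (SD, n = 3 each). Between genotypes its log2 fold change was 0.0038 (SE 0.072, adjusted *p* = 0.997), with an interval of −0.17 to 0.18. The KO/WT ratio was 0.964 and 0.936 in pairs 1 and 2 and 1.12 in pair 3, so the sign of the change turned when replicate 3 was left out (−0.074).

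The ratio of *Cd79a* to *Cd79b* within a library does not depend on the factor by which the library is scaled. Quantile normalization, which uses no single factor per library, can change it. It was 0.194, 0.235 and 0.211 in KO and 0.234, 0.268 and 0.237 in WT, lower in KO in each pair. The KO ratio was 0.826, 0.876 and 0.890 times the WT ratio in pairs 1, 2 and 3, a mean log2 change of −0.21 ± 0.057 (SD, n = 3 pairs). The exact sign-flip permutation test gave *p* = 0.25, two-sided, which is the smallest that 3 pairs allow (adjusted *p* = 0.5 over the 2 ratios). The third partner, *Ighm*, which encodes the µ heavy chain in its membrane and secreted forms together, had a log2 fold change of −0.35 (SE 0.12, adjusted *p* = 0.970). Its ratio to *Cd79a* changed by 0.25, −0.062 and −0.62 on the log2 scale in pairs 1, 2 and 3, with no common direction (exact permutation *p* = 0.75).

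**Figure D2:**
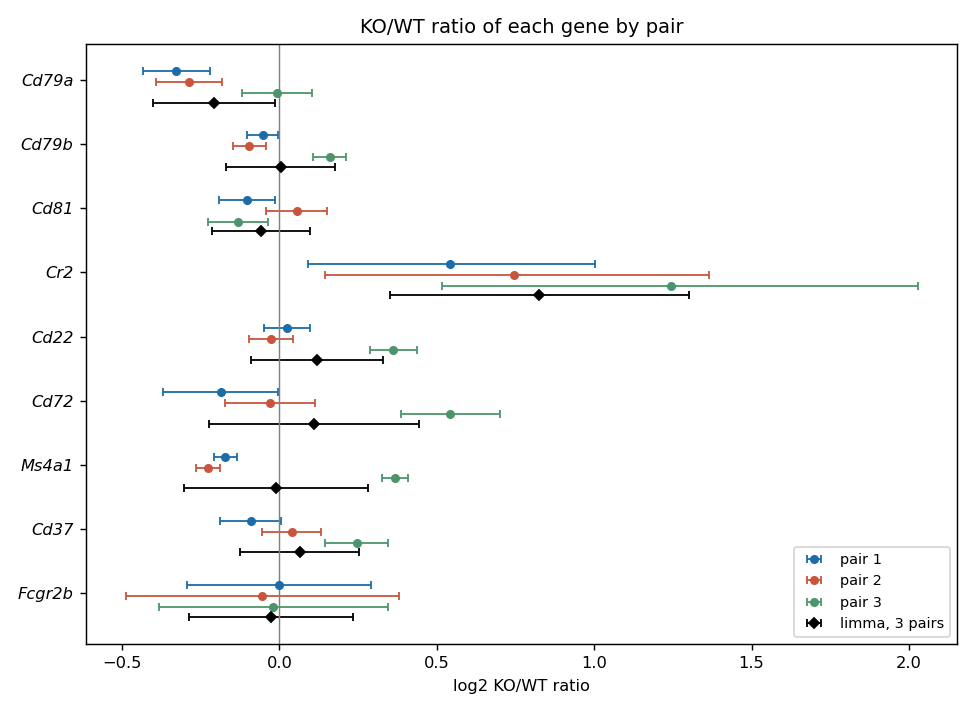
The log2 KO/WT ratio of each gene in pairs 1, 2 and 3 (circles, with 95% intervals from counting error only) and the limma estimate over the 3 pairs (diamonds, with 95% intervals). The 3 circles of *Cr2* lie to the right of 0 with their intervals, and for *Cd22*, *Cd72*, *Ms4a1*, *Cd37* and *Cd79b* the circle of pair 3 lies to the right of the other pairs.

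*Cr2*, which encodes the complement receptors CD21 and CD35 by splicing, differed most among the 9 genes and had the lowest level. It had 96.3, 64.8 and 59.9 normalized counts in KO and 66.1, 38.7 and 25.3 in WT. In each pair the KO library was higher, but the groups overlapped, since WT of pair 1 was above KO of pairs 2 and 3. The means were 73.7 ± 19.7 in KO and 43.4 ± 20.8 in WT (SD, n = 3 each). The fit with the batch gave a log2 fold change of 0.83 (SE 0.20, 95% interval 0.35 to 1.30), a level 1.77 times that of WT, on the scale of log2(normalized count + 1).

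This value ranked 61 among the 12322 genes tested, of which 0.528% had a log2 fold change of at least 0.8, and by *p* it ranked 9 among the genes higher in KO. It did not pass the threshold (limma adjusted *p* = 0.737), nor in edgeR (adjusted *p* = 0.770) or DESeq2 (adjusted *p* = 1.00), and the adjusted *p* lay between 0.194 and 1.00 over the alternatives. Without the replicate block its *p* was 0.0487 and its adjusted *p* 1.00. The counts behind it were small, 102, 68 and 66 fragments in KO and 70, 37 and 21 in WT. The KO/WT ratio was 1.46 (counting interval 1.06 to 2.00), 1.68 (1.11 to 2.57) and 2.37 (1.43 to 4.08) in pairs 1, 2 and 3, so each interval lay above 1, and 11.7% of all genes were higher in KO in all 3 pairs.

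Dendritic cells are among those that the negative selection is meant to remove. Of their 5 markers, 4 averaged 3.82 normalized counts or less, 2 of them at 0 in all libraries. *Flt3* was also higher in KO in all 3 pairs, as were 11.7% of all genes, with a log2 fold change of 0.47 (SE 0.14, adjusted *p* = 0.930). The sum of the list, which was mostly *Flt3*, was 383 to 802 in KO and 299.8 to 487 in WT. Its part in the result for *Cr2* was not tested.

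The other coreceptor gene varied less. *Cd81* (chr7:143052739-143067934, plus strand), which encodes a tetraspanin of the coreceptor, had 1884, 1761 and 1812 normalized counts in KO and 2023, 1695 and 1984 in WT, and the KO values lay inside the WT range. Its log2 fold change was −0.060 (SE 0.065, interval −0.22 to 0.096, adjusted *p* = 0.970). The KO/WT ratio was 0.931 (counting interval 0.876 to 0.990), 1.04 (0.971 to 1.11) and 0.913 (0.855 to 0.976) in pairs 1, 2 and 3, so pairs 1 and 3 lay below 1 and pair 2 did not differ from 1 beyond counting error.

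The inhibitory receptors showed no difference beyond the spread between pairs. *Cd22* (chr7:30865402-30880342, minus strand), which encodes a sialic acid binding lectin, had 2844, 3217 and 3561 normalized counts in KO and 2795, 3278 and 2770.5 in WT. Its KO/WT ratio was near 1 in pairs 1 and 2 (1.02 and 0.981) and 1.29 in pair 3 (counting interval 1.22 to 1.35). The log2 fold change was 0.12 (SE 0.088, interval −0.091 to 0.33, adjusted *p* = 0.970), and it was −0.0012 without replicate 3.

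*Cd72* (chr4:43446462-43454628, minus strand), which encodes a lectin-like receptor, had 439, 794 and 874 normalized counts in KO and 499.6, 810.3 and 599.6 in WT. Both libraries of pair 1 were lowest, and in pair 3 the KO library was the highest of all 6. The means were 702 ± 231 in KO and 636 ± 159 in WT (SD, n = 3 each), and the KO/WT ratio was 0.878, 0.980 and 1.46 (counting interval 1.31 to 1.63) in pairs 1, 2 and 3. Its log2 fold change was 0.11 (SE 0.14, adjusted *p* = 0.970) and −0.11 without replicate 3. *Tesk1* shares 1423 exon bases with *Cd72* on the opposite strand and had 61.0 to 99.9 normalized counts, and the counting used strand. Another 4 members share 13 to 479 exon bases with a gene on the opposite strand (*Cd37*, *Cd81*, *Fcgr2b* and *Cd22*), and none shares them with a gene on its own strand.

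*Fcgr2b* (chr1:170958617-170976547, minus strand), which encodes the only inhibitory Fc receptor for IgG, had 185.9, 89.6 and 135.3 normalized counts in KO and 186.0, 93.1 and 137.3 in WT. Within each pair the libraries were nearly equal, with KO/WT ratios of 0.999, 0.963 and 0.986, while pair 1 was 2.04 times pair 2. Its log2 fold change was −0.025 (SE 0.11, interval −0.29 to 0.24, adjusted *p* = 0.992), and its counts of 89 to 197 fragments leave counting intervals of the ratio as wide as 0.713 to 1.30 in pair 2. The difference between batches passed the limma *F* test (adjusted *p* = 0.0487), as it did for 1.15% of all genes, and did not pass with no filter on low values (0.135), a filter at a mean of 50 (0.0529) or quantile normalization (0.0538). Batch, sex and litter cannot be told apart for pair 2. Myeloid cells, which the negative selection is meant to remove, also express *Fcgr2b*, and the sum of their markers was 210, 81.0 and 185 in KO pairs 1, 2 and 3 and 163, 144 and 248 in WT. This sum was lowest in both libraries of pair 2 and highest in WT of pair 3. Its part in the batch difference of *Fcgr2b* was not tested.

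The transcripts of CD20 and CD37 differed in direction between pairs. *Ms4a1* (chr19:11249675-11266241, minus strand), which encodes CD20, had 10696, 10161 and 11806 normalized counts in KO and 12045, 11886 and 9152 in WT. KO was lower in pairs 1 and 2 (ratios 0.888 and 0.855) and higher in pair 3 (1.29), each with a counting interval that excluded 1. The log2 fold change was −0.010 (SE 0.12, adjusted *p* = 0.996), and its sign turned under total-count, TMM and quantile scaling. *Cd37* (chr7:45233632-45239115, minus strand), which encodes a tetraspanin, had 1592, 1905 and 1875 normalized counts in KO and 1696, 1855 and 1582 in WT, a log2 fold change of 0.064 (SE 0.078, interval −0.12 to 0.25, adjusted *p* = 0.970) and −0.026 without replicate 3. Its KO/WT ratio was 0.939 and 1.03 in pairs 1 and 2, with counting intervals that held 1, and 1.19 in pair 3 (1.11 to 1.27).

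Pair 3 stood apart from the other pairs for most of these genes. Of the 9, 7 were lower in KO in pair 1, 6 in pair 2 and 3 in pair 3, against 53.2%, 49.9% and 49.5% of all genes. Under the other scalings these counts were 6 to 7, 6 and 1 to 3. The median KO/WT ratio of the 9 was 0.939, 0.980 and 1.19 in pairs 1, 2 and 3. The WT library of pair 3 had the lowest value of all 6 for *Cr2*, *Cd22*, *Ms4a1* and *Cd37*, the lowest depth and the highest sum of plasma cell markers (24686 against 14567 in KO of the same pair). In pair 1 this sum went the other way, 20451 in KO and 15972 in WT, and in pair 2 it was 11616 and 12008. Of the 6 plasma cell markers tested, 2 had a positive and 4 a negative log2 fold change. The part of the plasma cell markers in these ratios was not tested. Without replicate 3, the log2 fold change was 0.63 for *Cr2*, −0.31 for *Cd79a*, −0.20 for *Ms4a1*, −0.11 for *Cd72* and −0.074 for *Cd79b*. It lay between −0.027 and −0.0012 for *Cd81*, *Cd22*, *Cd37* and *Fcgr2b*. The median of the 9 was −0.027 beside −0.0035 over all genes.

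**Figure D3:**
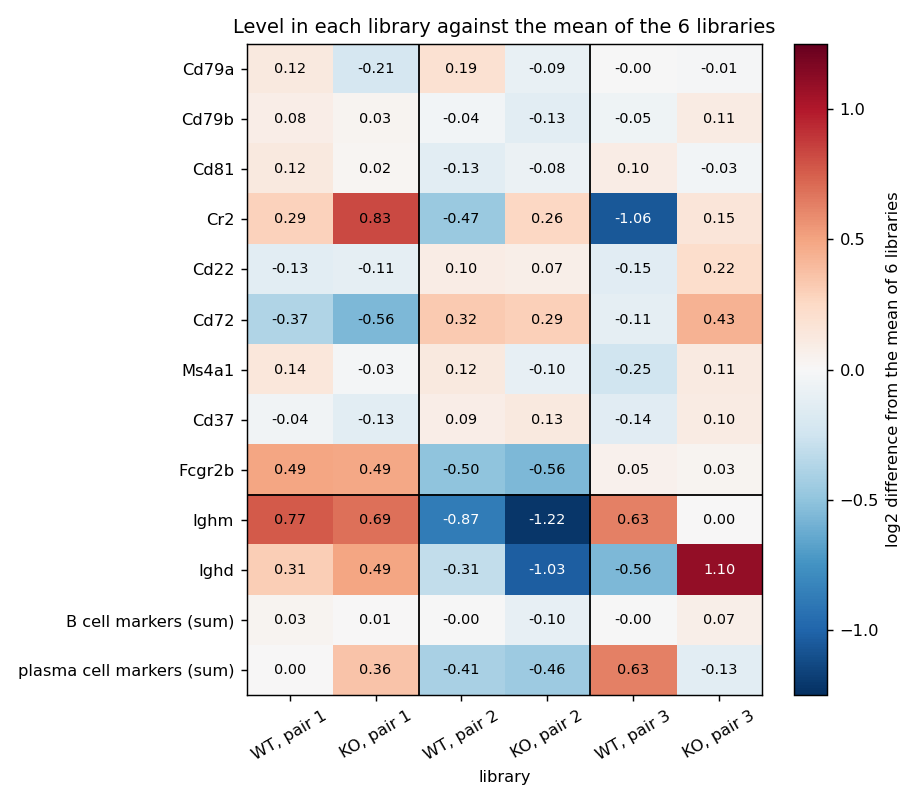
The log2 level of each gene in each library as the difference from its own mean over the 6 libraries, in colour and digits, with *Ighm*, *Ighd* and the sums of the B cell and plasma cell markers below the line. *Fcgr2b* and *Ighm* share the sign of their differences in all 6 libraries, with values near 0 in KO of pair 3 (0.032 and 0.0032). *Cr2* runs from −1.06 in WT of pair 3 to 0.83 in KO of pair 1, and the plasma cell markers are highest in WT of pair 3 (0.63).

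The genes fell into steady and variable members. The root mean square deviation of the log2 level over the 6 libraries was 0.61 for *Cr2*, 0.42 for *Fcgr2b* and 0.37 for *Cd72*, above that of 94.2%, 87.7% and 84.7% of the genes tested. *Cr2* and *Fcgr2b* also had the lowest counts of the 9 genes, where counting error widens this deviation. These percentages were not matched for level. The other 6 had values of 0.082 to 0.14, below the median of 0.15 over all genes tested. By the means of the pairs, the highest was 2.04 times the lowest for *Fcgr2b*, 1.91 times for *Cr2* and 1.71 times for *Cd72*, and 1.07 to 1.15 times for the other 6. *Cd79a* and *Fcgr2b* were the 2 genes lower in KO in all 3 pairs, against 13.1% of all genes. Total-count and quantile scaling left neither of them lower in all 3 pairs, since *Fcgr2b* was above WT by 0.0041 (pair 1) and 0.053 (pair 3) under the former and by 0.0068 (pair 3) under the latter, and TMM left *Fcgr2b* alone. Of the 9 genes only *Fcgr2b* passed the batch test. *Fcgr2b*, *Cd72* and *Cr2* had an unadjusted batch *p* under 0.05, as did 12.5% of all genes, and the adjusted *p* was 0.178 for *Cd72* and 0.237 for *Cr2* in limma.

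Levels of different genes were compared per kilobase of merged exons. *Cd79b* was highest with a mean of 4315 normalized counts per kilobase, then *Ms4a1* with 1771, *Cd79a* with 971, *Cd81* with 646, *Cd22* with 610.4, *Cd37* with 497, *Cd72* with 196, *Fcgr2b* with 23.8 and *Cr2* with 7.21. The ranges over the 6 libraries overlapped only for the neighbours *Cd81* and *Cd22*, each higher in 3 of 6 libraries. *Cd79b* was above 99.0% of the genes tested and *Cr2* above 10.1%. Per kilobase, *Cd79a* stood at 0.190 to 0.263 of its partner *Cd79b*. With the longest transcript as the length, *Cd81* (1157) passed *Cd79a* (971).

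**Figure D4:**
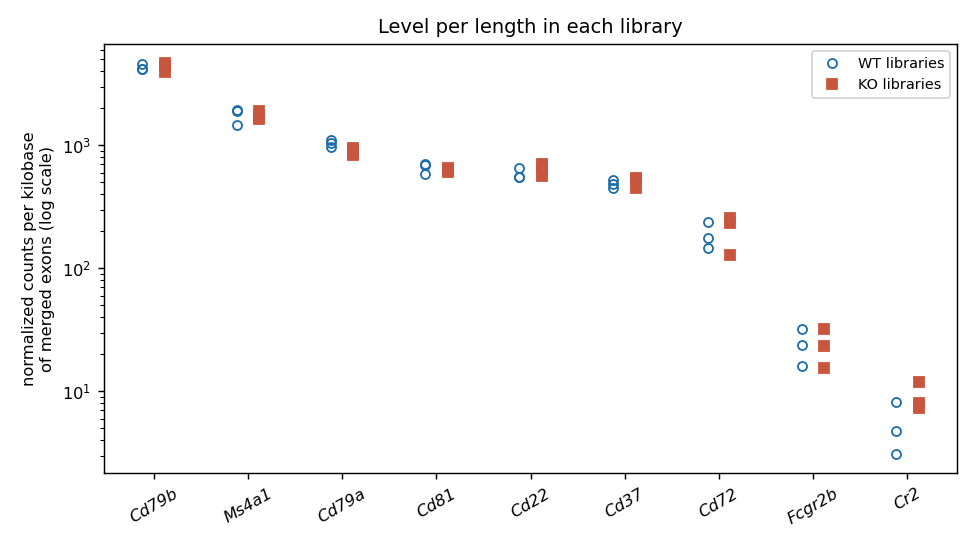
Normalized counts per kilobase of merged exons on a log axis, with open circles for the 3 WT libraries and filled squares for the 3 KO libraries of each gene. The levels run from a mean of 4315 for *Cd79b* to 7.21 for *Cr2*. The ranges over the 6 libraries of neighbouring genes do not overlap, except those of *Cd81* and *Cd22*.

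The genes whose pattern over the 6 libraries was nearest to that of a member were found without the group labels, by the root mean square difference of the centred log2 levels. Nearest to *Cr2* were *Gm43196* (0.086), *C230085N15Rik* (0.11) and *Gm43080* (0.15). For *Cd79a* they were *Cep89* (0.019), *Sprtn* (0.042) and *3110040N11Rik* (0.042), and for *Cd22* they were *Glis2* (0.022), *Arl6ip5* (0.025) and *Mtrex* (0.029). Among the members themselves, *Cd37* ranked 80 of the genes nearest to *Cd22*, and *Cd22* ranked 238 of those nearest to *Cd37* and 342 of those nearest to *Cd72*. No other member was among the 3 nearest genes of any member.

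Related genes of the same complexes and protein families showed no called change either. Of 12 other receptor complex and coreceptor genes, 10 were tested, with 6 positive and 4 negative log2 fold changes, 0 called and a median of 0.14. *Ighd*, which encodes the δ heavy chain, had a log2 fold change of 0.37 (SE 0.39, adjusted *p* = 0.970) and of −0.27 without replicate 3. Of 25 other tetraspanins, 15 were tested, with 7 positive and 8 negative values and a median of −0.0020. Among these, *Cd53*, a tetraspanin of all leukocytes, had a log2 fold change of −0.14 (adjusted *p* = 0.970) and was lower in KO in all 3 pairs, and *Cd82* had 0.052 (adjusted *p* = 0.971).

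Of 16 other Fc receptors and Fc receptor-like genes, 7 were tested, with 4 positive and 3 negative values and a median of 0.13. *Fcer2a*, which encodes the low-affinity IgE receptor CD23, had a log2 fold change of 0.17 (SE 0.081, adjusted *p* = 0.970), and 0.072 without replicate 3. *Trim21*, a cytosolic Fc receptor, had 0.19 (SE 0.17, adjusted *p* = 0.970). *Fcrla* alone in this list passed the batch test (adjusted *p* = 0.0446), as did *Fcgr2b*.

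Of 20 other inhibitory receptors, 12 were tested, with 6 positive and 6 negative values and a median of 0.0024. *Clec2d* had a log2 fold change of 0.040 (adjusted *p* = 0.971) and *Btla*, an inhibitory receptor of lymphocytes, 0.16 (SE 0.16, adjusted *p* = 0.970). Of 18 other MS4A genes, 3 were tested and all 3 values were positive, including *Ms4a4c* (0.40, SE 0.24, adjusted *p* = 0.970, and 0.035 without replicate 3) and *Ms4a6c* (0.032, SE 0.13, adjusted *p* = 0.992). All 15 B cell transcription factors were tested, with 9 positive and 6 negative values and a median of 0.038. *Pou2af1*, the coactivator of OCT factors, had −0.054 (SE 0.080, adjusted *p* = 0.974) and *Irf8* had −0.014 (SE 0.065, adjusted *p* = 0.992). In each of these lists 0 genes passed the threshold, against 0.0% of all genes.

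**Figure D5:**
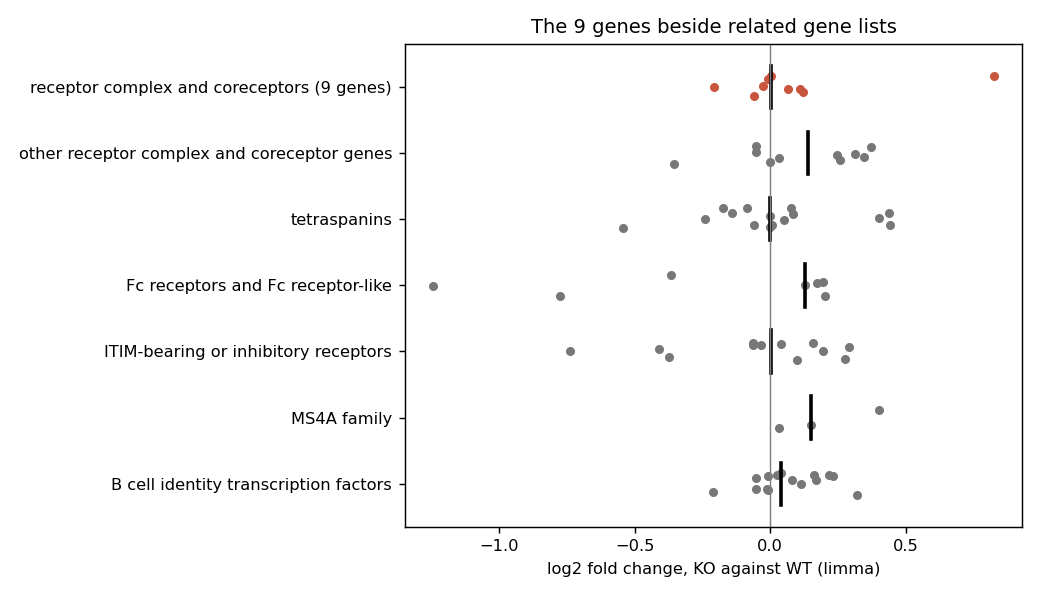
The log2 fold change of each gene tested, KO against WT by limma, for the 9 genes (red) and the related lists (grey), with a black bar at the median of each list and the vertical position of a point within a row carrying no value. The 9 genes lie between −0.21 and 0.12 except *Cr2* at 0.83, and the medians of the lists lie between −0.0020 and 0.15.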

How the data were processed

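RNA-seq of 6 libraries was used, 3 from *Tent5c* KO and 3 from WT B cells, grouped by the labels. Per the labels and the methods, the authors aligned the reads with STAR 2.6.1a to GRCm38 (mm10), counted strand-specific proper pairs on exons with featureCounts (Subread 1.6.3), at a mapping quality of at least 10, and scaled the counts with DESeq2. The deposited values are the resulting normalized counts, used here as a signal that keeps the scale of counts, and no filter had been applied. This scaling hides any change that most transcripts share. Division by the smallest step of each library gave whole fragments for 100% of the values (within 0.01 reads).

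Genotype and batch were fitted in limma 3.58.1 under R 4.3.3 (eBayes with trend, two-sided) to log2(normalized count + 1) of the 12322 genes that averaged 10 or more, Benjamini-Hochberg adjusted over all genes, threshold 0.05. Batches were compared by the *F* test of the same fit. Alternatives were edgeR 4.0.16 and DESeq2 1.42.0 on the fragments, and in limma other pseudocounts, filters, scalings, no block, and each pair left out. The fits were tested on simulated data. Ratios within a library were compared by an exact sign-flip permutation test. Counting intervals are exact conditional binomial 95% intervals.

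Per the labels, the batch equals the replicate number, and per the methods, KO and WT of a replicate came from littermates, so the numbers were used as pairs. Deviations from the group mean had correlations over genes of 0.328, 0.685 and 0.170 between libraries of one number. For KO 3 with WT 1 and KO 1 with WT 3 they were 0.282 and 0.260, above the value of pair 3. The other combinations of different numbers were negative. The pairing of replicates 1 and 3 therefore rests on the labels and methods, not on these correlations. How many mice and cultures a library holds is not given in the sources used here, and *p*-values measure the spread between these libraries. Symbols, positions and exon lengths came from Gencode vM21 (54409 of 54446 identifiers matched). The named genes are the 9 members, *Tent5c*, *Ighm*, *Ighd*, the 2 most abundant genes tested in each related list with any gene past the threshold, and the 3 genes nearest in pattern to each of the 3 members with the largest absolute log2 fold change. *Fcrla*, *Flt3*, *Tesk1*, *Xist* and *Ddx3y* were named after their values were seen. 1 gene that the naming rule covers, and the comparisons that need it, are not reported here. The members and lists were chosen with earlier results of these data known.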

Additional observations from a re-analysis of the deposited data

How the results depend on the processing

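None of the 9 genes was called under any of the 14 alternatives to the fit by limma, while the number of all genes called moved. DESeq2 with the replicate block called 22 genes lower and 1 higher, and leaving out a replicate gave 0 to 168 lower and 0 to 3 higher, with 168 and 3 without replicate 1. Without the replicate block, limma called 0 genes, and 170 lower and 126 higher genes had an unadjusted *p* under 0.05, against 373 and 206 with it. edgeR with the block called 0 as well, and 368 genes below WT and 200 above it had *p* under 0.05 before adjustment. The block changed no call of a named gene. The batch test called 51 genes with no filter on low values, against 142. The cause was not tested.

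The log2 fold changes of *Cr2*, *Cd79a* and *Cd81* kept their sign under every alternative (0.63 to 0.97, −0.31 to −0.15 and −0.12 to −0.024). *Ms4a1* was 0.024 under total-count scaling, 0.00019 under TMM and 0.081 under quantile normalization, *Fcgr2b* 0.0087 under total-count scaling, *Irf8* 0.020 under total-count scaling and 0.0068 under quantile normalization, and *Ms4a6c* −0.0080 in edgeR with no replicate block. Other scalings moved the median of all genes by at most 0.035. With each replicate left out in turn, the values ran from −0.074 to 0.054 for *Cd79b*, −0.0012 to 0.19 for *Cd22*, −0.11 to 0.26 for *Cd72*, −0.20 to 0.098 for *Ms4a1*, −0.026 to 0.14 for *Cd37*, −0.033 to 0.52 for *Tent5c*, −0.27 to 0.92 for *Ighd*, −0.49 to −0.21 for *Ighm*, 0.072 to 0.25 for *Fcer2a*, 0.035 to 0.67 for *Ms4a4c*, −0.027 to 0.11 for *Cd82*, −0.052 to 0.34 for *Trim21*, −0.10 to 0.31 for *Btla*, −0.16 to 0.19 for *Ms4a6c*, −0.15 to 0.0093 for *Pou2af1* and −0.072 to 0.019 for *Irf8*. The ratio of *Ighm* to *Cd79a* ran from −0.34 to 0.093, positive without replicate 3. The median of the other receptor complex genes was 0.014 with no filter and −0.046 to 0.083 with a replicate left out, that of the Fc receptors −0.24 to 0.19 and that of the MS4A genes 0.00016 to 0.33. Over these alternatives, 116 values of the 9 genes kept direction and side of the threshold and 10 turned sign, and for the other named genes 170 did so and 12 turned sign. Depth limits *Cr2* and *Fcgr2b* most, with 21 to 102 and 89 to 197 fragments per library.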
